A study of Mus musculus with 26 samples.

Results

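The respiratory chain genes described here are the 95 genes of 24682 in the count table whose symbols start with Nduf, Uqcr, Cox4 to Cox8 or Atp5, or are Sdha to Sdhd, Cycs, Cyct or Cyc1. The choice went by symbol. Of these, 44 belong to complex I, 4 to complex II, 11 to complex III with cytochrome c, 20 to complex IV and 16 to complex V. Gene symbols were counted in 23 distinct RNA sequencing libraries of C57BL/6 mouse testis and of sorted male germ cells, with total counts from 16469667 to 40010106 per library. Ndufs5, a general subunit of complex I, had a count of 0 in every library. It entered no comparison, and the reason for its absence was not tested. The whole testes were taken at postnatal day 21, when the first wave of germ cells is reaching the round spermatid stage, and the titles of the sorted cells also give 21 days.

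The testis libraries form 3 sets, each with wild-type testes of its own. The Nkapl set holds 3 wild-type and 2 Nkapl knockout libraries, and the Sox30 set holds 3 wild-type and 2 Sox30 knockout libraries. The TGdel set holds 2 wild-type libraries and 3 libraries homozygous for an Nkapl allele called TGdel (TGdel/TGdel), and the series title names a frameshift mutation of NKAPL. Pachytene spermatocytes, which are in meiotic prophase, and round spermatids, the haploid cells that follow, were taken from wild-type and Nkapl knockout mice, with 2 libraries in each of these 4 groups. The extent of each deletion and the way the cells were purified are not in the labels. Biological triplicates are stated for each group, but a sorted group has 2 libraries with no stated animals. The p-values there measure the spread between these libraries only. Spread between libraries of a group was taken as chi-square per degree of freedom, which is 1 for sampling noise alone. It was 1.93 to 4.20 in the Nkapl testis set and 1.40 to 4.85 in sorted groups. In the Sox30 set it was 10.55 to 41.95 and in the TGdel set 6.49 to 16.85. Numbers of calls in different sets thus rest on unlike spreads. Libraries were grouped by the sample named in the column heading, and a library deposited under 2 records was counted once. For 4 of 15 testis libraries (Nkapl-set wild type 3, Sox30-set wild type 3, TGdel 3 and wild type 2 of the TGdel set) record and heading put the library in different groups.

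Nkapl, a germ cell gene related to an activator of NF-kappa-B, was lower in Nkapl knockout testis (log2 fold change -0.40 ± 0.05, SE, edgeR quasi-likelihood test, adjusted p = 2.96e-06) and in knockout spermatids (-1.89 ± 0.07, adjusted p = 4.40e-20). It was higher in the spermatocytes labelled knockout (0.51 ± 0.05, adjusted p = 3.26e-09), against the label, so those libraries are called by their labels throughout. Sox30 was -0.57 ± 0.15 in Sox30 knockout testis and missed the threshold (adjusted p = 0.171). Spermatid markers were detected in every sorted group. A sum over 12 spermatid markers was 9840 to 10200 counts scaled to library size (CPM) in wild-type spermatids, 3509 to 3514 in knockout spermatids, 3057 to 3177 in spermatocytes labelled wild type and 1334 to 1370 in spermatocytes labelled knockout, with none of the 12 at 0 in these libraries. A sum over 11 spermatocyte markers was 6221 to 6606, 6503 to 6527, 6250 to 6475 and 7068 to 7295 CPM in the same order, with overlapping ranges in wild-type spermatids and in spermatocytes labelled wild type. In the TGdel set Nkapl was 0.20 ± 0.09 (adjusted p = 0.328).

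The respiratory chain moves electrons from NADH (complex I) and succinate (complex II) through complex III and cytochrome c to oxygen at complex IV, and complex V uses the resulting proton gradient to make ATP. Most subunits are encoded by single nuclear genes used in every tissue, but some positions have alternative isoforms. Male germ cells use their own cytochrome c, encoded by Cyct, and their own small complex IV subunits, encoded by Cox6b2, Cox7b2 and Cox8c, in place of Cycs, Cox6b1, Cox7b and Cox8a. Pachytene spermatocytes and spermatids are known to rely on lactate from Sertoli cells as fuel for this chain.

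The promoters of Cyct, Cox6b2 and Cox7b2 and of their general partners Cycs, Cox6b1 and Cox7b are shown because these pairs carry the contrast between germ cells and whole testis in the values below, and that of Ndufaf3 because this gene was called in each comparison of an Nkapl allele. The sequences are from RefSeq (GRCm38.p6), which held promoters for 76 of the 95 genes. Each runs 5′ to 3′ and ends 1 base before the transcript start, or earlier where an annotated exon of a protein-coding gene was left out. Capitals mark matches on either strand to CCAAT (the box bound by NF-Y), TGACGTCA (the cyclic AMP response element), CCGGAAG (a site of ETS factors such as GABP), the consensus of the respiratory regulator NRF1 and ACAAT (contained in the SOX consensus), and no 2 matches overlap.
Cyct (chr2:76360454-76360703, minus strand): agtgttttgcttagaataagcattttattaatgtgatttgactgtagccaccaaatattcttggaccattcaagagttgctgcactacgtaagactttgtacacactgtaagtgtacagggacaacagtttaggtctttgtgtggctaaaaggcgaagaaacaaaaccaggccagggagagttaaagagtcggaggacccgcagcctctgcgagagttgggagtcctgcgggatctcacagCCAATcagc
Cycs (chr6:50566570-50566819, minus strand): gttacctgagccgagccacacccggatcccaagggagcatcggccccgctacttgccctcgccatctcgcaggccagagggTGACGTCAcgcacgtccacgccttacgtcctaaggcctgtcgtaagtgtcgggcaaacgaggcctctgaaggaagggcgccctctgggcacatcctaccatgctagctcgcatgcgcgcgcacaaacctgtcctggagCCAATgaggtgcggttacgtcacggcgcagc
Cox6b2 (chr7:4753095-4753225, minus strand): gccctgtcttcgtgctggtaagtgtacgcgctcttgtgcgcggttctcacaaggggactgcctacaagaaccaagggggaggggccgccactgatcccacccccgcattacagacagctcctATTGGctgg
Cox6b1 (chr7:30626152-30626364, minus strand): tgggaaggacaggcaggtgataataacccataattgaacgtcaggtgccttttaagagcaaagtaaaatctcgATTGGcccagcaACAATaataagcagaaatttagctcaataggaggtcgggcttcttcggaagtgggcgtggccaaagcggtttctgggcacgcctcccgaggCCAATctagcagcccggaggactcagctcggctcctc
Cox7b2 (chr5:71548206-71548455, minus strand): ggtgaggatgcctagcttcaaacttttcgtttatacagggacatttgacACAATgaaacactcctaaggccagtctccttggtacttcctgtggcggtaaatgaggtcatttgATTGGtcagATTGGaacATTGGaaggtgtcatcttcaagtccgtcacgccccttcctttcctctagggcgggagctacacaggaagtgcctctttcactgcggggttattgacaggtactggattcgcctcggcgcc
Cox7b (chrX:106015450-106015699, plus strand): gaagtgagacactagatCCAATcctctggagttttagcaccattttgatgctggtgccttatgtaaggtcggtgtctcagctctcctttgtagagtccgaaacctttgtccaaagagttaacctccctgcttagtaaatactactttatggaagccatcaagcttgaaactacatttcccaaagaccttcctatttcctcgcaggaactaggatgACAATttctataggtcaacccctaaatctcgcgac
Ndufaf3 (chr9:108567437-108567686, minus strand): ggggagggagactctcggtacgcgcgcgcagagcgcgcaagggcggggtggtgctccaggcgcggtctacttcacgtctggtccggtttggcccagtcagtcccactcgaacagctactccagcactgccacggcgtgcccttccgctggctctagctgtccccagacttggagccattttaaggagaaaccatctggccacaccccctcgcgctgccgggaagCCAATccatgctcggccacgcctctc

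In the 250 bases before the start, 3 of 3 promoters of testis isoforms with an entry (Cyct, Cox6b2 and Cox7b2) held CCAAT, which 33.8% of 32851 promoters held. In Cyct it lay 9 bases before the start, and Cox7b2 held 3 copies between 137 and 120 bases before the start. Among the 68 promoters of 63 general subunit genes, 41.2% held CCAAT. The NRF1 consensus was in 20.6% of the general subunit promoters against 3.74% of all promoters, the ETS letters were in 17.6% against 6.91%, and the cyclic AMP response element in 7.35% against 1.55%. None of these last 3 motifs was in the 3 testis isoform promoters. ACAAT was in 25% of the general subunit promoters, in 27.7% of all promoters and in 1 of 3 testis isoform promoters. A match describes letters in this window and says nothing of whether a factor is bound.

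Testis isoforms were among the most abundant respiratory chain transcripts. In spermatocytes labelled wild type, Cox8c, which encodes the testis form of the smallest complex IV subunit, had the highest level per kilobase of annotated exon, at 776 ± 32.9 CPM per kb (SD, n = 2). Cox7b2 (233 ± 8.82), Cox6b2 (229.6 ± 23.5) and Atp5o of complex V (226 ± 4.56 CPM per kb) came next and did not differ beyond their spread, followed by the general complex IV subunit Cox4i1 (198 ± 16.7). Cyct ranked 9 of 95 at 106 ± 6.42 CPM per kb. In wild-type spermatids Cox8c was again first (626 ± 77.5 CPM per kb), ahead of Cox6b2 (248 ± 2.86). In wild-type testis of the Nkapl set Cox8c led at 265 ± 3.83 CPM per kb (n = 3), with Atp5o at 171 ± 2.89, Atp5b at 125 ± 3.77 and Cox7b2 at 121 ± 5.52. Lengths are of all annotated exons merged, which lowers the level of genes with long alternative exons. Atp5o was matched to an entry with 530 exon bases that shares exons with another entry of the same name. Its level per kilobase and its rank are therefore uncertain.

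**Figure D1:**
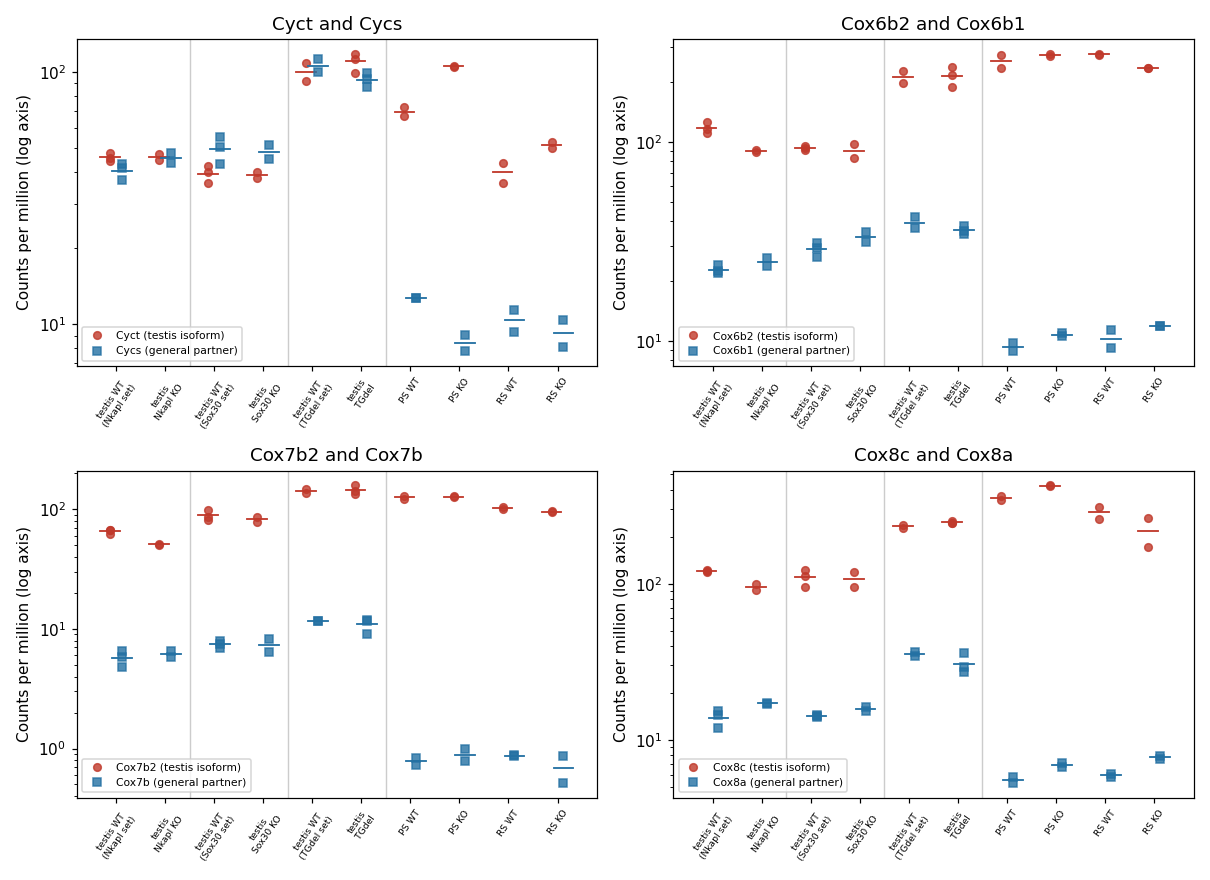
Level of each testis isoform (red circles) and its general partner (blue squares) in every library, as CPM on a log axis, with short lines at group means. PS and RS are spermatocytes and spermatids, WT and KO are the labelled genotypes, and grey lines part the sets, which were scaled separately. Cox7b2, Cox6b2 and Cox8c lie above their partners in every library, and Cyct lies apart from Cycs in the sorted cells.

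Per kilobase, the testis form outnumbered the general form in all 4 pairs and in all 23 libraries. For Cyct and Cycs the direction in whole testis depends in some sets on the exon lengths used (655 and 3404 bases). Not divided by length, their ratio was 0.716 to 0.926 in wild-type testis of the Sox30 set. In that of the Nkapl set it was 1.06 to 1.19. Per kilobase, the ratio of Cyct to Cycs was 5.49 to 6.19 in wild-type testis of the Nkapl set, 27.3 to 29.7 in spermatocytes labelled wild type and 19.9 to 20.3 in wild-type spermatids. For Cox6b2 and Cox6b1 these ratios were 2.94 to 3.58, 16.9 to 17.8 and 15.6 to 19.0. For Cox7b2 and Cox7b they were 23.2 to 29.3, 328 to 399 and 260.0 to 268, the last ones resting on Cox7b levels of under 1 CPM. For Cox8c and Cox8a they were 10.6 to 13.7, 85.6 to 87.6 and 58.2 to 72.1. The sorted and whole-testis libraries were scaled separately and no test was made between them. Forms known from other tissues were low: Cox8b was at most at 0.11 CPM in any library, Cox6a2 at 0.23 CPM, Cox4i2 at 0.51 CPM, and the muscle form Cox7a1 was at 1.7 to 6.1 CPM over the testis sets and at 0.1 to 0.5 CPM in sorted cells. Ndufa4l2, a relative of the complex IV subunit Ndufa4 known as a hypoxia target, was at 33.3 to 47.0 CPM in sorted cells and at 5.6 to 15.5 CPM over the testis sets.

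Nkapl knockout testis was compared with wild-type testis of its set to ask which transcripts depend on this gene. The testis forms Cox8c, Cox6b2 and Cox7b2 of complex IV fell, and their general partners Cox8a, Cox6b1 and Cox7b did not. Cox8c was at 120, 123 and 121 CPM in wild type and at 98.9 and 91.4 CPM in the knockout, which gave -0.35 ± 0.04 on the log2 scale (SE, adjusted p = 3.47e-06). Cox6b2, at 126, 117 and 111 CPM against 90.7 and 88.6 CPM, fell by 0.40 ± 0.05 (adjusted p = 4.88e-06). Cox7b2, at 67.7, 62.3 and 67.4 CPM against 51.8 and 50.8 CPM, fell by 0.36 ± 0.05 on the log2 scale (adjusted p = 1.90e-05). For these 3 genes the wild-type and knockout libraries did not overlap. Falls were not particular to testis forms. Of the general subunits of all complexes, 21 of 75 tested were also called lower (28%, against 26.1% of all genes). The general complex IV subunit Cox7a2 was at 85.4 to 89.7 CPM in wild type and at 68.4 to 78.9 CPM in the knockout.

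Of the partners, Cox8a was at 15.3, 14.4 and 11.9 CPM in wild type and 17.3 and 17.1 CPM in the knockout, a rise of 0.31 ± 0.10 (adjusted p = 0.0196), and Cycs rose by 0.17 ± 0.07 (adjusted p = 0.0453), with overlapping libraries for neither gene. Cox6b1 (0.13 ± 0.07) and Cox7b (0.12 ± 0.15) did not pass. Cyct, unlike the other testis forms, showed no change that passed (0.01 ± 0.06, adjusted p = 0.930), at 47.7, 44.4 and 45.4 CPM in wild type against 44.6 and 47.4 CPM. The rises of Cox8a and Cycs were not called by DESeq2, that of Cox8a was lost without wild type 3 (0.21) or either knockout library (0.30 and 0.32), and that of Cycs without wild type 2 (0.11) or knockout 1 (0.11). By contrast, the falls of Cox8c, Cox6b2 and Cox7b2 were lost under none of the 11 alternatives other than grouping by file record.

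Of the 91 respiratory chain genes that passed the filter on low counts in Nkapl knockout testis, 5 rose and 27 fell, which is 5.49% and 29.7% against 17.8% and 26.1% of all 16937 genes tested. The median log2 fold change was -0.04 for these genes and 0.01 for all genes. In complex I, 1 of 43 tested members rose and 14 fell. The falls included Ndufa12 (-0.41 ± 0.06), an accessory subunit, Ndufaf2 (-0.43 ± 0.10), an assembly factor related to it, and Ndufv2 of the NADH-oxidising module (-0.24 ± 0.04). The rise was that of Ndufaf3, an assembly factor (0.20 ± 0.04, adjusted p = 0.000472). None of the 4 complex II genes passed. In complex III with cytochrome c 3 of 11 rose, namely Cyc1, which encodes cytochrome c1 (0.20 ± 0.06), Cycs and the core protein gene Uqcrc2 (0.10 ± 0.04, not called by DESeq2, nor without wild type 2 or 3 or either knockout library, at 0.08 to 0.12), and 3 fell, with the Rieske iron-sulfur protein gene Uqcrfs1 at -0.33 ± 0.05 and Uqcrq at -0.28 ± 0.05. In complex IV 1 of 17 rose and 8 fell, and the largest fall of any member was that of Ndufa4l2 (-0.63 ± 0.11, from 12.6 to 13.6 CPM in wild type to 8.0 and 8.9 CPM). In complex V 2 of 16 fell, Atp5s (-0.31 ± 0.07, and -0.25 and not called without knockout 2) and Atp5j (-0.20 ± 0.05), and none rose.

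Markers of cell types moved in the same comparison, and their part in these results was not tested. The sum of the 12 spermatid markers was 214 to 268 CPM in wild type and 70.5 to 72.3 CPM in the knockout, with up to 5 of them at 0 there. The sum of 11 spermatocyte markers was 3859 to 3931 against 3396 to 3508 CPM, and that of 10 Sertoli cell markers was 1818 to 1878 against 2166 to 2279 CPM. In whole testis, fewer cells of a type and less RNA per cell cannot be told apart. DESeq2 called 2 members higher and 20 lower, scaling by library totals alone called 15 and 17 (54.7% of all calls higher, against 40.5%) and turned the median to 0.02, and grouping by file record called 0 (4 at an unadjusted p under 0.05).

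**Figure D2:**
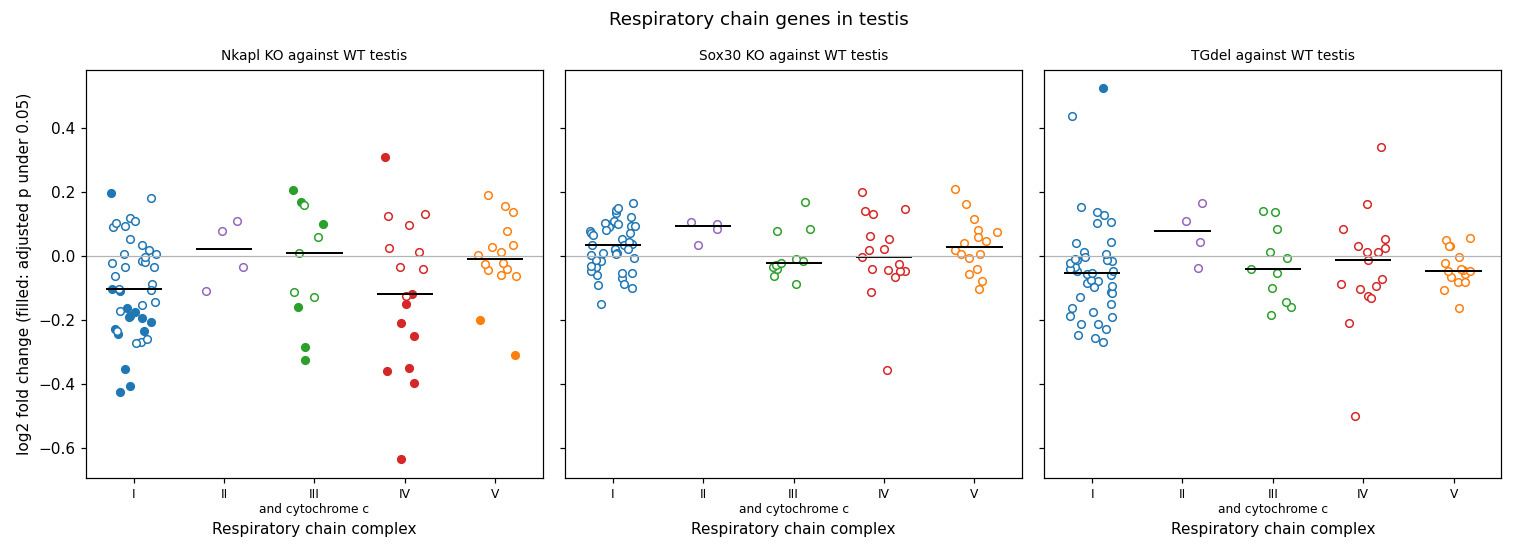
Log2 fold change of each tested respiratory chain gene (points) in the 3 testis comparisons, by complex, with black lines at medians. Filled points passed an adjusted p of 0.05: 32 of 91 in the Nkapl knockout, 0 of 91 in the Sox30 knockout and 1 of 91 in TGdel.

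Sox30 encodes a transcription factor that male germ cells need to pass through the round spermatid stage. In Sox30 knockout testis none of 91 respiratory chain genes was called by edgeR, in a comparison in which 2.42% of 17816 genes were called, and none had an unadjusted p under 0.05. DESeq2 also called 0. Member log2 fold changes ran from -0.36 to 0.21, with a median of 0.02. Cox8c was at 95.5 to 122 CPM in wild type and at 95.4 and 118 CPM in the knockout, and Cox6b2 was at 90.9 to 95.02 against 83.3 and 97.3 CPM, so the groups overlapped for both. The 12 spermatid markers summed to 178 to 457 CPM in wild type and to 58.1 to 97.1 CPM in the knockout. The standard errors were larger than in the Nkapl set, for example 0.14 for Cox8c against 0.04, and a test of the difference between the Nkapl and Sox30 knockout effects called 0 members (6 at an unadjusted p under 0.05, 0 called by DESeq2), with 2.80% of 17867 genes called, 0.168% higher and 2.64% lower. Cox6b2 differed by -0.34 ± 0.12 (adjusted p = 0.181) between the effects, Cox8c by -0.29 ± 0.16 (adjusted p = 0.407) and Cox7b2 by -0.23 ± 0.13 (adjusted p = 0.418), so the fall of these forms is not shown to differ between the knockouts.

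In TGdel testis 1 of 91 members passed, where 1.25% of 16011 genes were called, 0.200% higher and 1.05% lower. This was Ndufaf3, at 316 and 306 CPM in wild type and at 432, 448 and 461 CPM in TGdel, a rise of 0.52 ± 0.08 (1.44-fold, adjusted p = 0.0241) with no overlap. The testis forms did not pass: Cox8c was 0.08 ± 0.07, Cox6b2 0.01 ± 0.11, Cox7b2 0.03 ± 0.09 and Cyct 0.14 ± 0.10. DESeq2 called 2 members higher. With the 3 libraries whose heading and record name the same group, Ndufaf3 kept its size (0.53 ± 0.13) but missed the threshold (adjusted p = 0.0909), where the lone wild-type library was taken to vary like the others. The call was also lost without TGdel 2 (0.50) or either wild-type library (0.50 and 0.55), and grouping by file record gave 0.12 ± 0.21.

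In sorted cells the Nkapl knockout comparison asks which of these transcripts depend on the gene within a stage. In spermatocytes labelled knockout, 50 of 89 tested members were higher and 5 lower than in those labelled wild type, which is 56.2% and 5.62% against 33.6% and 25.7% of all 15805 genes (59.2% in either direction). The member median was 0.19 and that of all genes 0.07. All 4 complex II genes, which encode succinate dehydrogenase, rose: Sdhc by 0.45 ± 0.06, Sdhd by 0.38 ± 0.06, Sdha by 0.29 ± 0.05 and Sdhb by 0.20 ± 0.06. In complex III with cytochrome c 9 of 11 rose, led by the hinge protein gene Uqcrh (0.62 ± 0.06) and Uqcrc2 (0.56 ± 0.05). In complex V 11 of 16 rose and none fell, among them the ATP synthase alpha subunit gene Atp5a1 (0.37 ± 0.05) and Atp5k (0.49 ± 0.09). In complex IV 7 of 16 rose and none fell, with Cox4i1 at 0.35 ± 0.05 and Cox5b at 0.25 ± 0.06. In complex I 19 of 42 rose and 4 fell, and the rises were led by the assembly factors Ndufaf3 (0.94 ± 0.06, 1.92-fold) and Ndufaf7 (0.65 ± 0.06), a methyltransferase.

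The cytochrome c genes moved in opposite directions in these spermatocytes. Cyct was at 66.6 and 72.6 CPM in the libraries labelled wild type and at 106 and 105 CPM in those labelled knockout, a rise of 0.60 ± 0.07 (adjusted p = 5.45e-09). Cycs was at 12.7 CPM in both of the former and at 9.1 and 7.8 CPM in the latter, so it fell by 0.59 ± 0.12 (adjusted p = 0.000135). The per-kilobase ratio of Cyct to Cycs rose with this from 27.3 to 29.7 to 60.6 to 69.9. Cycs has near-identical copies elsewhere in the genome, and reads shared with them are uncertain. The other falls were in complex I: Ndufb11 (-0.79 ± 0.27), at 1.7 and 2.2 against 0.9 and 1.4 CPM, and the assembly factors Ndufaf4 (-0.60 ± 0.20), Ndufaf1 (-0.23 ± 0.10) and Ndufaf2 (-0.22 ± 0.08). Leaving out 1 library ended each of these 4 calls: labelled wild type 2 or labelled knockout 1 for Ndufb11, labelled wild type 1 or labelled knockout 2 for Ndufaf4 and Ndufaf2, and these or labelled wild type 2 for Ndufaf1. Ndufb11 shares exon sequence on the other strand with Rbm10, which fell by 0.95 in the same comparison, and the strand setting of the counting is not given in the sources used here. In all, 28 members share exon sequence with a gene on the other strand and 5 with one on the same strand. Among the complex IV testis forms, Cox8c was at 345 and 366 against 423 and 425 CPM (0.26 ± 0.10, adjusted p = 0.0244). This call was lost with library totals, with DESeq2 and with no filter on low counts (0.18) and without any 1 of 5 libraries, namely wild-type spermatocyte 1, either spermatocyte library labelled knockout and either wild-type spermatid library (0.16 to 0.26 where lost). Cox6b2 (0.10 ± 0.05) and Cox7b2 (0.02 ± 0.05) did not pass, although Cox6b2 was called without wild-type spermatocyte 2 (0.21).

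The size of this rise depends on scaling and tool. DESeq2 called 28 members higher and 2 lower, not including Ndufb11, Ndufaf4, Ndufaf1, Cox8c and Cox8a, and library totals alone called 25 and 6, where all calls split 4073 to 4816 in place of 5304 to 4059. The member median was 0.12 above that of all genes under each of these, 0.06 above it without wild-type spermatocyte 1 and 0.17 above it without wild-type spermatocyte 2. Leaving out any 1 of the 4 spermatid libraries, which share the fit, called 30 members higher.

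In knockout spermatids the changes went both ways. Of 89 members 19 were higher and 15 lower (21.3% and 16.9%, against 29.0% and 31.0% of all genes, 60.0% in either direction), with a median of 0.02 and 0.03 for all genes. Complex I held 10 of the falls and 5 of the rises. Ndufa13, a complex I subunit also known as GRIM-19, was at 61.8 and 65.2 CPM in wild-type spermatids and 36.3 and 35.6 CPM in the knockout, a fall of 0.82 ± 0.09 (adjusted p = 5.06e-09). Ndufa13 shares exon sequence on the other strand with the spermatid kinase gene Tssk6, which went from 111 and 120 to 26.6 and 30.5 CPM. In the spermatocytes Tssk6 was at 35.0 and 42.0 CPM with the wild-type label and at 12.5 and 11.1 CPM with the knockout label (-1.70). Ndufa13 was 0.05 ± 0.09 there, and the part of Tssk6 in the values of Ndufa13 was not tested. Ndufv3 (-0.43 ± 0.13), Ndufaf1 (-0.38 ± 0.10) and Ndufv1, which carries the NADH site (-0.29 ± 0.06), were also lower. Ndufa1, a small X-linked subunit, rose by 1.02 ± 0.17 from 3.5 and 4.0 to 8.5 and 6.8 CPM, and Ndufa4 of complex IV by 0.95 ± 0.24 from 1.9 and 1.4 to 3.3 CPM in both knockout libraries.

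Of complex II, Sdhd was at 24.1 and 26.6 CPM in wild-type spermatids and at 40.7 and 39.7 CPM in the knockout (0.67 ± 0.07, adjusted p = 8.54e-09), and Sdhc rose by 0.25 ± 0.08. Of complex III, Uqcrh (0.35 ± 0.07) and Uqcrfs1 (0.34 ± 0.05) rose, and Uqcrc1 fell by 0.12 ± 0.05, a call lost with DESeq2. Of complex V, Atp5d (0.25 ± 0.06) and Atp5e (0.22 ± 0.07) rose, Atp5f1 fell by 0.18 ± 0.06 (not called by DESeq2 at -0.16 or with library totals at -0.07), and Atp5g1 went from 30.2 and 31.6 to 20.9 and 19.2 CPM (-0.63 ± 0.09, adjusted p = 2.85e-07). Atp5g1, Atp5g2 and Atp5g3 encode the same mature c subunit of the ATP synthase rotor, and neither Atp5g2 (-0.02 ± 0.14) nor Atp5g3 (0.06 ± 0.10) passed in spermatids. Leaving out 1 spermatid library ended the calls of Atp5e, Atp5f1, Ndufv3, Sdhc and Uqcrc1, and of the genes named here it ended no call of Ndufa13, Ndufa1, Ndufa4, Ndufaf3, Sdhd, Atp5g1, Cyct or Cox6b2.

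The testis isoforms diverged in knockout spermatids. Cyct was higher (36.3 and 43.6 against 52.8 and 49.9 CPM, 0.36 ± 0.08, adjusted p = 0.000158). Cox6b2 was lower (277 and 273 against 236 and 234 CPM, -0.23 ± 0.05, adjusted p = 0.000767). Cox7b2 did not pass (-0.10 ± 0.06, adjusted p = 0.117). Cox8c was called lower (-0.40 ± 0.10, adjusted p = 0.00108), but its values of 312 and 261 CPM in wild type and 171 and 263 CPM in the knockout overlapped, and the call was lost with DESeq2, without knockout library 1 and without wild-type library 1. Cox8a rose by 0.38 ± 0.13, a call lost with DESeq2 and without any 1 of the 4 spermatid libraries. DESeq2 called 17 members higher and 7 lower, and library totals alone called 37 and 7 (60.1% of all calls higher, against 48.3%), with Cox6b2 no longer called.

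**Figure D3:**
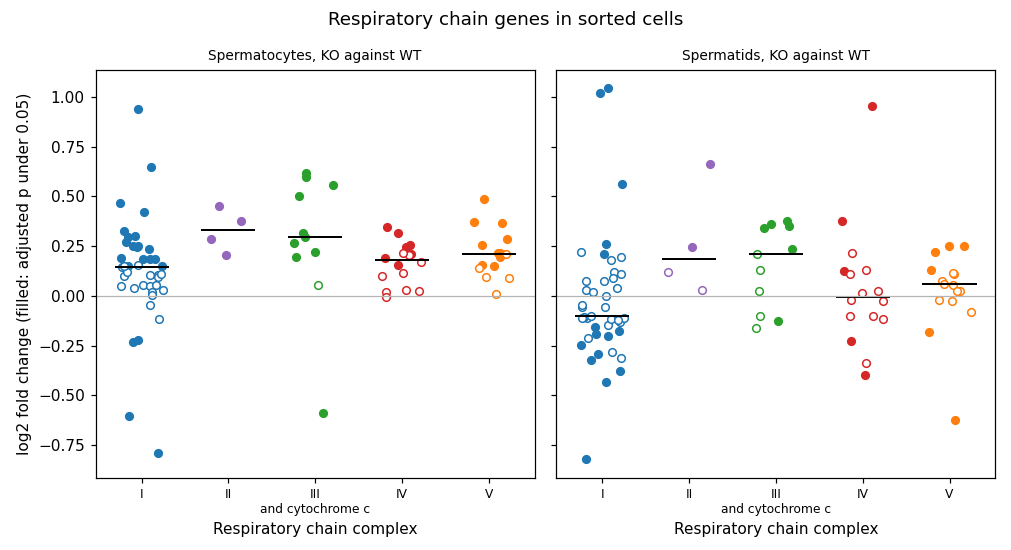
Log2 fold change of each tested respiratory chain gene (points) between knockout and wild-type labels within spermatocytes and within spermatids, by complex, with black lines at medians. Filled points passed an adjusted p of 0.05: 55 of 89 in spermatocytes, mostly above 0, and 34 of 89 in spermatids, on both sides of 0.

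Other measures moved with genotype in the sorted cells, and their part was not tested. Besides the spermatid marker sums above, Sertoli markers summed to 275 to 294 CPM in spermatocytes labelled wild type and 192 to 194 CPM in those labelled knockout, and to 38.2 to 42.4 and 46.5 to 46.6 CPM in wild-type and knockout spermatids. Peritubular markers summed to 98.6 to 98.7 and 39.7 to 43.0 CPM in the spermatocytes, and to 272 to 279 and 118 to 119 CPM in the spermatids. Leydig cell markers summed to 46.6 to 47.3 and 62.6 to 66.7 CPM in the spermatocytes, and to 9.63 to 9.71 and 22.6 to 23.6 CPM in the spermatids, with up to 2 of them at 0 in wild type. Macrophage markers summed to 3.69 to 4.37 and 6.05 to 6.20 CPM, and to 15.5 to 15.8 and 36.9 to 38.2 CPM. Spermatogonial markers summed to 97.97 to 102 and 135 to 140 CPM, and to 46.9 to 48.3 and 64.9 to 65.1 CPM. Markers of each of these cell types were detected in the sorted cells, but the sums do not show whether such cells were present. The peritubular sum of wild-type spermatids lay within the range of wild-type testis of the Nkapl set (261 to 302 CPM). Sertoli markers summed to 1818 to 1878 CPM in that testis. The peritubular sums were lower with the knockout label at both stages, and the Leydig, macrophage and spermatogonial sums higher, with no overlap between libraries. Reads assigned to no single gene were 18.8% to 20% of all reads counted in the libraries labelled wild type and 23.2% to 24.6% in those labelled knockout.

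Ndufaf3, Uqcrc2 and Cox8a were called higher with the Nkapl knockout label in testis, spermatocytes and spermatids, and Ndufaf2 lower in the 3. These are 3.37% and 1.12% of 89 members tested in all 3, against 5.33% and 11.1% of 14942 genes, so the shares of members were not above those of all genes. Cox8a in spermatocytes was 0.31 ± 0.13 (adjusted p = 0.0404), a call lost with DESeq2, library totals, no filter on low counts and without any 1 library other than wild-type spermatocyte 2 (0.22 to 0.35 where lost). Ndufaf3 encodes a small matrix protein needed early in complex I assembly and lies on chromosome 9 at 108565537 to 108567434 (GRCm38, minus strand). It was at 195, 198 and 189 CPM in wild-type testis and 229 and 216 CPM in Nkapl knockout testis. It was at 314 and 370.0 CPM in spermatocytes labelled wild type and 658 and 652 CPM in those labelled knockout, and at 223 and 209 CPM in wild-type spermatids and 446 and 444 CPM in knockout spermatids (1.04 ± 0.06, 2.06-fold). Wild-type and altered libraries did not overlap in any of the 4 comparisons of an Nkapl allele. Ndufaf3 was picked out because it was called in each of these, so the lack of overlap adds no support. In Sox30 knockout testis it was -0.06 ± 0.12 (adjusted p = 0.9995), and its effects in the Nkapl and Sox30 knockouts were not shown to differ (0.27 ± 0.14, adjusted p = 0.356). It shares exon sequence on the other strand with Impdh2, an enzyme of guanine nucleotide synthesis. Impdh2 was -0.08 in Nkapl knockout testis, -0.11 in the spermatocytes, 0.16 in the spermatids and -0.27 in TGdel, and its part in the values of Ndufaf3 was not tested.

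**Figure D4:**
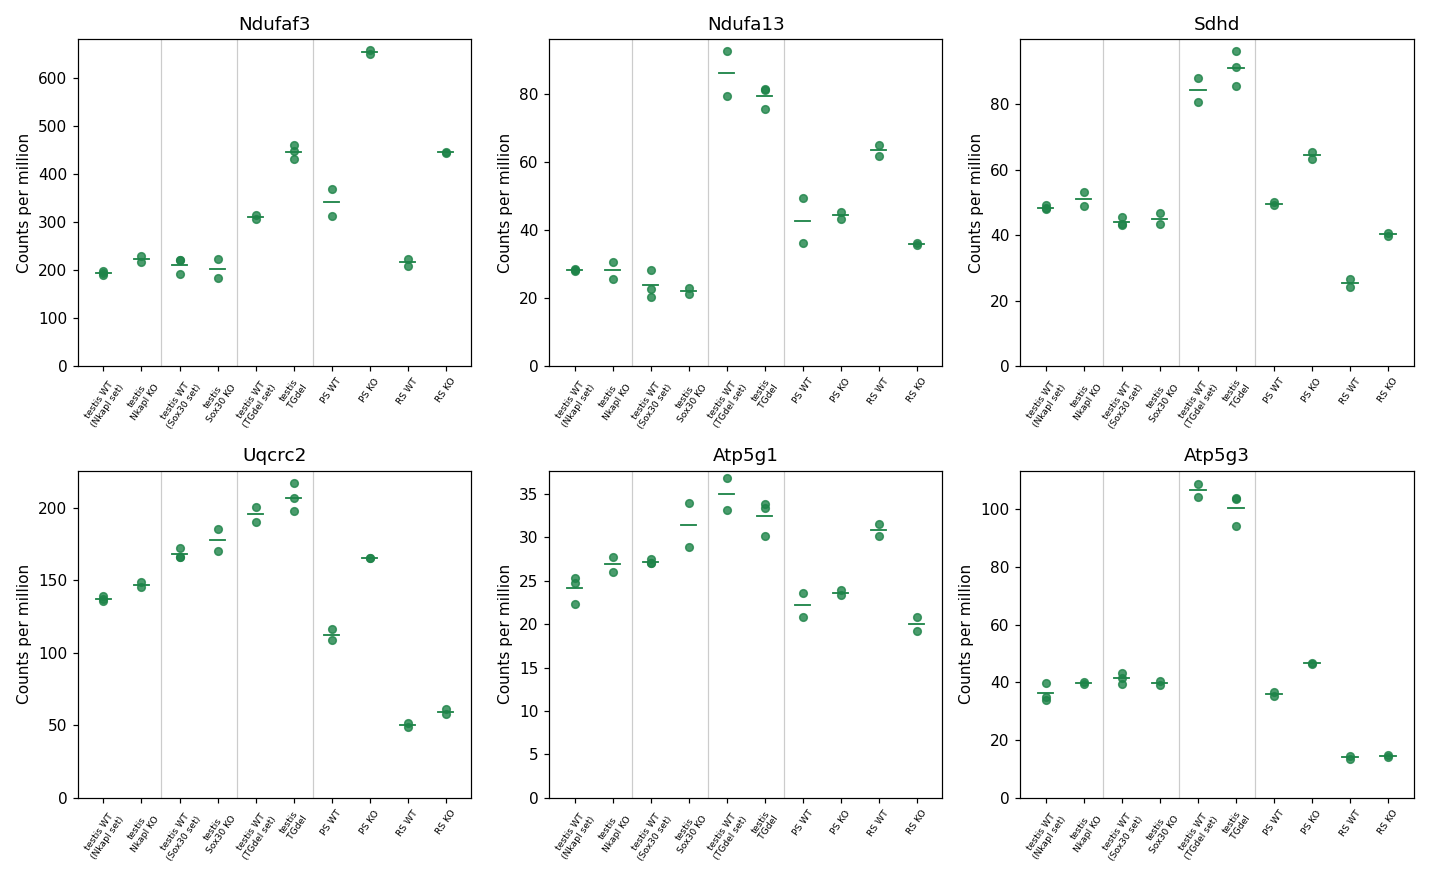
CPM in every library (points) with group means (lines) for Ndufaf3, Ndufa13, Sdhd, Uqcrc2, Atp5g1 and Atp5g3, with linear axes from 0. PS and RS are spermatocytes and spermatids, and grey lines part sets scaled separately. Ndufaf3 lies higher with the knockout label than in the wild type of the Nkapl set and in both stages, Ndufa13 and Atp5g1 lie lower in knockout than in wild-type spermatids, and Uqcrc2 and Atp5g3 fall from PS to RS in both genotypes.

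Spermatids were compared with spermatocytes in each genotype to describe the change between stages. Respiratory chain transcripts were lower in spermatids relative to other genes. In wild type 45 of 89 members were lower and 16 higher (50.6% and 18%, against 36.4% and 41.1% of all genes, 77.5% in either direction), with a median of -0.15 and 0.05 for all genes. In the libraries labelled knockout 56 were lower and 13 higher (62.9% and 14.6%, against 39.3% and 37.7%, 77.0% in either direction), with a median of -0.27 and -0.04 for all genes. With scaling by library totals alone the median of all genes moved from 0.05 to -0.29 in wild type and from -0.04 to -0.16 in those labelled knockout, and 70 members were lower and 2 higher in wild type and 65 and 4 with the knockout label. The median of the members lay 0.19 below that of all genes in wild type and 0.24 below it with the knockout label under either scaling.

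Large falls of single genes occurred in every complex, but with the main scaling complex IV as a whole did not fall in wild type. With that scaling 5 of its 16 tested members were lower and 4 higher in wild type (31.2% and 25%, against 36.4% and 41.1% of all genes), with a median of 0.06. As a share of all counts complex IV did fall, from 0.197% and 0.215% in spermatocytes labelled wild type to 0.155% and 0.151% in wild-type spermatids. With the knockout label and the main scaling 8 complex IV members were lower and 2 higher (50% and 12.5%, against 39.3% and 37.7%), with a median of -0.205. Ndufc2, a membrane arm subunit of complex I, went from 26.5 and 27.7 CPM in spermatocytes labelled wild type to 9.3 and 7.7 CPM in wild-type spermatids (-1.67 ± 0.11, adjusted p = 9.41e-15). It went from 34.0 and 29.8 to 8.4 and 7.2 CPM in the libraries labelled knockout (-2.03 ± 0.11). Of complex II, Sdhd fell by 0.97 ± 0.07 in wild type and 0.68 ± 0.07 with the knockout label, and Sdhc by 0.79 ± 0.07 and 0.99 ± 0.07. Of complex III, Uqcrc2 went from 108 and 116 to 48.9 and 51.7 CPM in wild type (-1.16 ± 0.06) and from 166 and 165 to 60.9 and 57.5 CPM with the knockout label (-1.48 ± 0.06), and Cyc1 fell by 1.09 ± 0.10 in wild type. Of complex IV, Ndufa4 fell by 1.40 ± 0.21 and Cox4i1 by 0.45 ± 0.05 in wild type. Ndufa4 was low in both, at 3.8 to 5.1 CPM in spermatocytes labelled wild type and 1.4 to 1.9 CPM in wild-type spermatids. Of complex V, Atp5g3 went from 35.2 and 36.7 to 14.6 and 13.4 CPM (-1.36 ± 0.08) and Atp5a1 fell by 0.53 ± 0.05 in wild type. No library of one stage overlapped with the other for Ndufc2, Uqcrc2 or Atp5g3.

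Some subunits rose between the stages. In both genotypes these included Uqcrfs1 (0.34 ± 0.06 in wild type and 0.42 ± 0.05 in libraries labelled knockout), Ndufa12 (0.38 ± 0.06 in each), Cox5a (0.24 ± 0.05 and 0.20 ± 0.05), Ndufa4l2 (0.28 ± 0.08 and 0.23 ± 0.08), Ndufaf2 (0.26 ± 0.08 and 0.29 ± 0.08), Atp5l (0.31 ± 0.07 and 0.24 ± 0.07) and the coupling factor gene Atp5s (0.50 ± 0.06 and 0.46 ± 0.06). Ndufa5 rose by 0.41 ± 0.07 in wild type. Atp5g1 and Ndufa13 rose in wild type (0.47 ± 0.08 and 0.57 ± 0.09) and fell with the knockout label (-0.24 ± 0.09 and -0.30 ± 0.09). In the libraries labelled knockout Ndufb11 (0.89 ± 0.28) and Ndufa1 (0.39 ± 0.15) were also called higher, the first lost without spermatocyte 1 labelled knockout or knockout spermatid 2 and the second without spermatocyte 2 labelled knockout or knockout spermatid 1, and Ndufa3 (-1.34 ± 0.10) and Ndufb9 (-1.15 ± 0.07) were among the largest falls. Under library totals alone 9 of the 61 members called in wild type changed sign, so part of these rises depends on the scaling. Cox5a (-0.09) and Ndufa4l2 (-0.05) were among them, and Cox6b2 (-0.22), which had not been called, also turned negative.

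**Figure D5:**
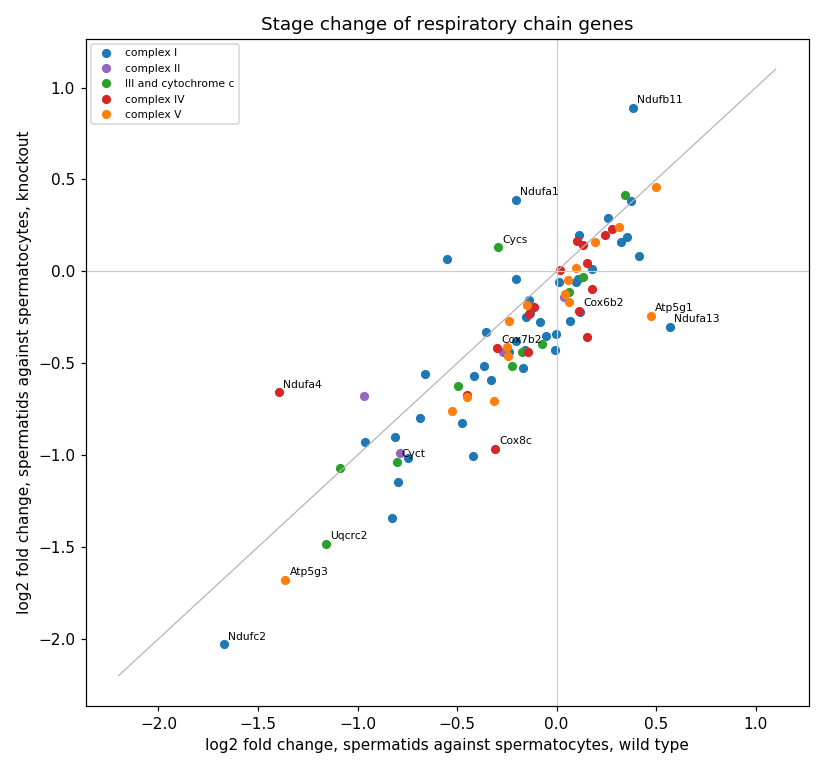
Log2 fold change from spermatocytes to spermatids of each tested respiratory chain gene in libraries labelled wild type (horizontal axis) and labelled knockout (vertical axis), coloured by complex. The grey diagonal marks equal change, and most points lie in the lower left, with Ndufc2 lowest at -1.67 and -2.03.

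Among the testis isoforms Cyct fell from spermatocytes to spermatids by 0.80 ± 0.07 in wild type and by 1.04 ± 0.07 in libraries labelled knockout, Cox7b2 fell by 0.30 ± 0.05 and 0.42 ± 0.05, and Cox8c by 0.31 ± 0.10 and 0.97 ± 0.10. Cox6b2 did not pass in wild type (0.11 ± 0.05) and fell by 0.22 ± 0.05 with the knockout label. The general forms Cox6b1, Cox7b and Cox8a did not pass in either genotype, and Cycs fell by 0.30 ± 0.12 in wild type, a call that DESeq2 did not make, and was 0.13 ± 0.13 with the knockout label. The fall of Cox8c in wild type was not called by DESeq2 either, nor without wild-type spermatid 2. The mean log2 ratio of testis to general form was lower over the 4 spermatid than over the 4 spermatocyte libraries in each of the 4 pairs. No difference passed an exact two-sided permutation test over these libraries after adjustment for 4 pairs. A lone pair could not pass, because the smallest p of 0.0286 becomes 0.114 on adjustment. The test therefore does not decide whether the ratio of any 1 pair differs. The test pooled the genotypes, whose ratios also differ, so within each label the stages are given here by their per-kilobase ranges only. With the knockout label Cox8c to Cox8a was 81.2 to 85.0 in spermatocytes and 30.5 to 45.0 in spermatids, and Cyct to Cycs was 60.6 to 69.9 and 25 to 34.0. The stages overlapped for Cox7b2 to Cox7b with the knockout label (290.0 to 369 and 248 to 418) and for Cox6b2 to Cox6b1 in wild type, at the values above. The log2 difference of the ratio was -0.79 for Cox8c and Cox8a (exact p = 0.0286, the smallest this design can give, adjusted p = 0.114), -0.83 for Cyct and Cycs (adjusted p = 0.229), -0.25 for Cox7b2 and Cox7b and -0.19 for Cox6b2 and Cox6b1 (adjusted p = 0.286 for both).

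The knockout effect itself differed between stages for 25 of 89 members, 1 higher and 24 lower in spermatids (1.12% and 27.0%, against 9.02% and 16.4% of all genes), with a median difference of -0.16 and -0.03 for all genes. Without wild-type spermatocyte 2 the falls numbered 37, and without any 1 of the 4 spermatid libraries 11 to 13. Ndufa13 differed most (-0.87 ± 0.13, adjusted p = 8.13e-06), then Atp5g1 (-0.71 ± 0.12) and Cox8c (-0.66 ± 0.14). The call of Cox8c was not made by DESeq2. Cox6b2 differed by -0.33 ± 0.08, a call lost without knockout spermatid 2, and Cyct (-0.23 ± 0.10, adjusted p = 0.0865) and Cox7b2 (-0.12 ± 0.08, adjusted p = 0.272) did not pass. Sdhd was the member that differed upward (0.29 ± 0.10), a call lost without any 1 of 4 libraries (wild-type spermatid 1, knockout spermatid 1 and either spermatocyte library labelled knockout). The direction over all members turned under library totals alone, where 10 were higher and 3 lower and the median was 0.04, with 78.9% of all calls higher against 35.4%, and DESeq2 called 2 higher and 8 lower.

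Genes outside the symbol rule that serve the same pathway were counted in the same fits. The shares of all genes called lower and higher in these fits were 36.4% and 41.1% between wild-type stages, and 25.7% and 33.6% in the spermatocytes labelled knockout. Several of these lists hold under 10 genes, and none is said to stand apart from all genes. Of 21 complex IV assembly factors tested, 13 were lower and 1 higher in wild-type spermatids, and 10 were higher and 1 lower in the spermatocytes labelled knockout, with Coa5 at 0.55 ± 0.06 and Cmc2 at -0.75 ± 0.12. Of 9 complex I assembly factors outside the rule, 7 were lower and 2 higher in wild-type spermatids, led by Tmem186 (-1.45 ± 0.08) and Ecsit (1.09 ± 0.08). Of 6 complex III factors 3 rose and 2 fell, with Lyrm7, which chaperones the Rieske protein, at 1.43 ± 0.08. Of 4 complex II factors 3 fell and none rose, with Sdhaf2, which adds the flavin to succinate dehydrogenase, at -0.76 ± 0.09. Of 4 complex V factors 3 rose and none fell. Of 8 carriers tested 3 rose and 4 fell, among them the testis adenine nucleotide carrier Slc25a31 (-0.92 ± 0.06).

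Of 18 citrate cycle genes 11 were higher and 2 lower in the spermatocytes labelled knockout (33.6% and 25.7% of all genes), and fumarase Fh1 was among the lower (-1.15 ± 0.11, and -1.23 ± 0.09 in knockout spermatids). Of 17 regulators of mitochondrial biogenesis 7 were higher and 4 lower in those spermatocytes, and 6 higher and 7 lower in knockout spermatids (29.0% and 31.0% of all genes). The packaging factor of mitochondrial DNA, Tfam, had the smallest p in both, at -1.76 ± 0.10 and -2.63 ± 0.09. It rose by 1.69 ± 0.07 from spermatocytes to spermatids in wild type. Tfam was at 22.3 and 26.2 CPM in spermatocytes labelled wild type, 6.73 and 7.65 in those labelled knockout, 79.4 and 76.96 in wild-type spermatids and 12.2 and 13.02 CPM in knockout spermatids. Of 9 genes of lactate and pyruvate use 2 rose and 5 fell in Nkapl knockout testis (17.8% and 26.1% of all genes), led by the transporter Slc16a7 (-1.33 ± 0.06) and the germ cell lactate dehydrogenase Ldhc (-0.35 ± 0.03). In that comparison 4 of 18 citrate cycle genes rose and 6 fell, with Sucla2 at -0.48 ± 0.04. In Sox30 knockout and TGdel testis none of these lists had a called gene. None of the 26 symbols listed for transcripts of the mitochondrial genome was in the count table, so these transcripts could not be analysed.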

How the data were processed

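The authors deposited raw counts of reads per gene symbol for each sample. Reads were mapped with HISAT2 2.1.0 to mm10 and counted with HTSeq, and DESeq2 is also named, per the submitters' processing notes. Libraries keep the RNA strand and were made from total RNA taken up in TRIzol, per the labels. Of 26 files, 3 repeated a column of another file, and in 15 of 18 testis files the heading named another sample than the record, so 23 libraries were grouped by heading and the labelled testis groups of 3 became groups of 2 or 3. HTSeq summary lines, 18.8% to 24.6% of reads in sorted libraries, entered neither library sizes nor tests. Total counts were 16469667 to 40010106 per library, and the number of libraries limits the precision.

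The 3 testis sets were fitted separately, and the 8 sorted libraries in 1 model, with edgeR 4.0.16 (filterByExpr, TMM scaling, quasi-likelihood F test, Benjamini-Hochberg adjustment over all genes tested, threshold 0.05, R 4.3.3). Standard errors were derived from the fold change and its F value. CPM used the scaled library sizes of each fit, so levels of different sets stand side by side without a test. Isoform ratios added a prior count of 0.5 for the exact permutation test. The method was run on simulated data for the Nkapl knockout comparisons in testis and in spermatocytes only, and was not tested in this way for the others. Alternatives were DESeq2 1.42.0, library totals without TMM, no filter on low counts, leaving out each library, the replicate number as a block, grouping by file record, and only libraries whose heading and record name the same group. Named in every comparison were the 4 testis isoforms and their partners, and otherwise for each complex and direction the 2 called members with the smallest p and the 5 largest rises and falls, with some added to complete a group. Members and gene lists were chosen with earlier results of these data known. Gene positions and exon lengths are from the GENCODE annotation of GRCm38, and promoters from RefSeq (GRCm38.p6).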

Additional observations from a re-analysis of the deposited data

Results flagged for a closer look

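The Nkapl effect by label (knockout against wild type) differed between spermatids and spermatocytes for 25 of 89 tested respiratory chain genes. This was by the edgeR interaction test (Benjamini-Hochberg adjustment over all genes). The share of 28.1% was near the 25.5% of all 15805 genes. By direction, 27% of members differed downward and 1.12% upward, against 16.4% and 9.02% of all genes. The values here are log2 differences of the spermatid effect minus the spermatocyte effect, each from 8 libraries. In complex I they were Ndufa13 (-0.868), Ndufv3 (-0.588), Ndufa3 (-0.516), Ndufb7 (-0.418), Ndufb10 (-0.355), Ndufb9 (-0.352), Ndufab1 (-0.349), Ndufs4 (-0.343), Ndufv1 (-0.335), Ndufa5 (-0.33), Ndufb5 (-0.298) and Ndufa9 (-0.273). In complex III with cytochrome c they were Uqcrq (-0.324), Uqcrc2 (-0.322), Uqcrb (-0.291) and Uqcrh (-0.266). In complex IV they were Cox8c (-0.655), Cox6b2 (-0.328), Cox6c (-0.295), Cox5b (-0.274) and Cox4i1 (-0.221), so the testis isoforms Cox8c and Cox6b2 and general subunits stood side by side. In complex V they were Atp5g1 (-0.713), Atp5f1 (-0.391) and Atp5a1 (-0.234). In complex II, Sdhd (0.29) was the 1 member with a higher effect in spermatids. Under library totals alone 3 members differed downward and 10 upward. Nkapl itself stood at -2.40 by the same test, with the spermatocyte libraries going against their labels. Ndufa13 shares exon sequence with Tssk6, whose effects did not pass this test (-0.32, adjusted p = 0.0749). The test compares ratios and not differences in CPM. Tssk6 was at 111 and 120 CPM in wild-type and 26.6 and 30.5 CPM in knockout spermatids. In spermatocytes it was at 35.0 and 42.0 CPM with the wild-type label and 12.5 and 11.1 CPM with the knockout label. The part of these neighbours, and of the spermatid marker sums given in the report, was not tested.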

How the results depend on the processing

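Counts of respiratory chain genes called higher and lower kept within 1.5 times of the reported count except as follows. In Nkapl knockout testis (5 higher, 27 lower) DESeq2 called 2 higher, library totals 15 higher and 17 lower, the replicate block 3 higher, libraries with one group in heading and record 3 higher, and grouping by file record 0 and 0. In Sox30 knockout testis (0 and 0) the block called 1 lower. In TGdel (1 higher) DESeq2 called 2, and the block, the libraries with one group and the record grouping 0. In spermatocytes by label (50 and 5) DESeq2 called 28 and 2, library totals 25 higher and no low count filter 27 higher. In spermatids (19 and 15) DESeq2 called 7 lower, and library totals 37 higher and 7 lower. Between stages library totals called 2 higher and 70 lower in wild type and 4 higher with the knockout label. For the difference of effects (1 and 24) DESeq2 called 2 and 8, library totals 10 and 3, the block 2 higher and no filter 14 lower. In wild-type stages 9 of the 61 called members changed sign under library totals, among them Cox5a (-0.0926) and Ndufa4l2 (-0.0536). Cox6b2, which had not been called, also turned (-0.222). The causes were not tested, apart from library totals moving all genes (median shift -0.333 in wild-type stages).

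Leaving out 1 library gave 2 to 10 higher and 16 to 27 lower in Nkapl knockout testis, 0 to 2 higher in TGdel, 30 to 63 and 2 to 6 in spermatocytes, 12 to 25 and 12 to 21 in spermatids, 11 to 23 and 35 to 48 between wild-type stages, 8 to 13 and 51 to 57 between stages with the knockout label, 0 to 4 and 11 to 37 for the difference of effects, and 0 to 2 lower for the Nkapl against the Sox30 effect. Of the named values 1756 kept their direction and side of the threshold, 146 were weaker, 11 stronger and 3 reversed. Same-numbered libraries shared only a number, with correlations of their deviations of 0.03 (Nkapl), 0.38 (Sox30) and -0.15 (TGdel) in testis and -0.01 to 0.05 in sorted cells, over 2 numbers each, and the block moved no other count by over 1.5 times.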
